A study of Mus musculus with 15 samples.

Results

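Matrix proteases and their inhibitors were described in mouse hearts as the protein-coding genes whose symbol begins with Adamts, begins with Mmp and a number, or is Timp1, Timp2, Timp3 or Timp4. The rule found 41 genes among the 16658 of the deposited table. They comprise 18 Mmp genes, 17 Adamts genes, 5 Adamtsl genes and 1 Timp gene, Timp2. The choice used names and gene type and no measured value.

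RNA was measured in heart tissue, taken as the infarct with the muscle around it, from male wild-type C57BL/6 mice aged 8 to 10 weeks. The table holds 2 rivaroxaban libraries (Riva-313 and Riva-319), 2 dabigatran libraries (Dabi-202 and Dabi-204), 2 libraries of activated protein C (aPC-791 and aPC-792), 2 untreated libraries (replicates 17 and 19) and 3 sham libraries (replicates 003, 006 and 007), and each gene's values are given in that order. Rivaroxaban, an inhibitor of coagulation factor Xa, was given at 3 mg/kg and dabigatran, an inhibitor of thrombin (factor IIa), at 10 mg/kg, both for 7 days. Activated protein C (aPC), an anticoagulant protease, was given at 1 mg/kg 30 min before surgery. Surgery tied a coronary artery for 90 min, 24 h of reperfusion followed, and drugs were resumed 2 h after surgery. Surgery is described in the labels for the study at large and not per group, so whether untreated hearts underwent it is not stated and they are called by their label. No label says that a library pools mice or that libraries came from separate litters or days, so p-values measure only the spread between these libraries. The drugs differ in dose and schedule as well as in target.

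Matrix metalloproteinases (Mmp) are zinc enzymes that cut collagens, elastin, gelatins and many signalling proteins, mostly outside the cell, and are made as inactive precursors. The Adamts family is related, with thrombospondin repeats that bind matrix, and cuts proteoglycans, procollagens and von Willebrand factor; Adamtsl proteins keep the repeats and lack the protease domain. The tissue inhibitors of metalloproteinases (Timp) bind the active site, and in an injured heart these genes are known for the breakdown and rebuilding of the matrix by resident cells and by incoming neutrophils and macrophages.

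The promoters of 5 members are shown, because 4 of them start in a single cluster of Mmp genes on chromosome 9 whose members behaved differently, and the fifth belongs to Adamts1, called in more comparisons than any other member. Each is the 250 bases before a RefSeq start on GRCm38.p6, on the gene's own strand. They lie at chr9:7272264-7272513 on the plus strand for Mmp13, chr9:7347124-7347373 on the plus strand for Mmp12, chr9:7445572-7445821 on the plus strand for Mmp3, chr9:7558179-7558428 on the plus strand for Mmp8 and chr16:85803114-85803363 on the minus strand for Adamts1. Capitals mark the AP-1 letters TGANTCA, the Ets letters AGGAAG and the TATA letters TATAAA, each searched on both strands.
Mmp13: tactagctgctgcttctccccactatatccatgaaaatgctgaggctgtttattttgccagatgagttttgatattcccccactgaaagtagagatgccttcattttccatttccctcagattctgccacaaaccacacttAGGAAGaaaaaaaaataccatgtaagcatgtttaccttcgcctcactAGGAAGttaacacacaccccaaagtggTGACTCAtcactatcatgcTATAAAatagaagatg
Mmp12: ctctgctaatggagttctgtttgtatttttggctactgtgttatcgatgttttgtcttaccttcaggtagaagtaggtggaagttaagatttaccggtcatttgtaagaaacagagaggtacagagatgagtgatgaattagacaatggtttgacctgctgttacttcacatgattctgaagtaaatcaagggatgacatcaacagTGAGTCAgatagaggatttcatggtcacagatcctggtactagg
Mmp3: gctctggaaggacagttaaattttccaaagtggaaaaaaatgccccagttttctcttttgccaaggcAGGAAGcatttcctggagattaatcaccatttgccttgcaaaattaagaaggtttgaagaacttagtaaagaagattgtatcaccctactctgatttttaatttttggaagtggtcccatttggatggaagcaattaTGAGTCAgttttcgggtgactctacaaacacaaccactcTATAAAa
Mmp8: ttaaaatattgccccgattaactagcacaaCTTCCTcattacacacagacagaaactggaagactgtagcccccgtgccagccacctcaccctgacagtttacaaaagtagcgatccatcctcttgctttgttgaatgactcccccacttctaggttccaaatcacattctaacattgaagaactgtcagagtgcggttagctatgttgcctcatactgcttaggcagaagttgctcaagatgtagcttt
Adamts1: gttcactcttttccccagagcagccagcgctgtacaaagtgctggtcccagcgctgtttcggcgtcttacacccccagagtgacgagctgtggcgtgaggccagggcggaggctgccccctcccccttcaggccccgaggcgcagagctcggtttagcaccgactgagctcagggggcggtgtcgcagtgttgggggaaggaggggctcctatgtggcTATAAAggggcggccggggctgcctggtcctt

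Mmp13 held an AP-1 match that begins 35 bases before the start, Ets matches at 109 and 62 and a TATA match at 16. Mmp12 held an AP-1 match at 44 and neither of the others. Mmp3 held all 3, with AP-1 at 46, Ets at 183 and TATA at 7. Mmp8 held an Ets match at 220, which reads on the opposite strand, and Adamts1 a TATA match at 32. No match overlapped another in these windows. RefSeq promoters were matched for 27 of the 41 members. The AP-1 letters were in 4 of the 27 (Mmp3, Mmp10, Mmp12 and Mmp13), against 6.75% of all 32851 promoters. The Ets letters were in 7 members, against 29.5% of all promoters, and the TATA letters in 6, against 12.4%. The CRE letters TGACGTCA were in none, against 1.55%, and the NF-kB motif was in 1 (Mmp25), against 3.9%. A match is a description of letters, and no match says only that these letters are not in this window.

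Values are log2 CPM, the log2 of a gene's reads scaled to the size of its library, as deposited. Reads on listed genes numbered 26203566 to 36135006 per library. A gene without a read stood at -3.93 and a gene with 3 reads between -2.83 and -2.41. Reads were added before the log, so differences of genes at that level come out too small. Of the 41 members, 36 were tested, having at least 0 log2 CPM in at least 3 libraries. Mmp10, Mmp21, Mmp24, Adamts13 and Adamts20 were not. Errors after ± are standard errors from limma unless SD is named, and each group has n = 2 (n = 3 in sham). Calls were made at an adjusted p (Benjamini-Hochberg) under 0.05 over 13541 genes. The 6 detected ventricular muscle markers summed to 57210 to 60540 CPM in rivaroxaban, 43710 to 46610 in dabigatran, 66930 to 72830 in aPC, 66600 to 86620 in untreated and 58660 to 76100 CPM in sham hearts. The 3 atrial markers in the table, Myl7, Myl4 and Nppa, summed to 239.9 to 281.3 CPM in dabigatran hearts, and to 41.6 to 114 CPM in all other hearts. Sln, also listed, was not in the table, and Myl7 had no read in at least 1 library. Of 2 atrial markers tested, dabigatran minus untreated called 1 higher and 0 lower, against 8.71% and 5.08% of all genes. Whether these sums stand for atrial tissue was not tested.

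Per kilobase of exon, Timp2 had the highest level of any member when all libraries were pooled, with a median of 30.0 CPM per kilobase over the 11 libraries. Adamtsl5 followed at 28.8, Mmp2 at 21.2, Adamtsl4 at 16.9, Mmp15 at 16.1, Adamts1 at 11.9 and Mmp3 at 10.7 CPM per kilobase. The order differed between groups. Timp2 had the highest group mean in rivaroxaban (29.7 CPM per kilobase), aPC (34.8) and sham hearts (31.9). In dabigatran hearts Adamtsl5 (39.3), Mmp9 (31.1) and Adamts1 (28.4) stood above Timp2 (18.4), and in untreated hearts Adamts1 led at 51.6, with Timp2 at 19.7 CPM per kilobase. The collagenases Mmp8 and Mmp13 had medians of 0.397 and 0.204 CPM per kilobase, and the macrophage elastase Mmp12 had 0.139. Mmp21 was the lowest at 0.0154. These levels describe all libraries together, and the members differ in how far they spread: the lowest and highest library were 0.48 log2 units apart for Adamts3, 1.22 for Timp2, 5.39 for Adamts4 and 6.93 for Mmp8.

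**Figure D1:**
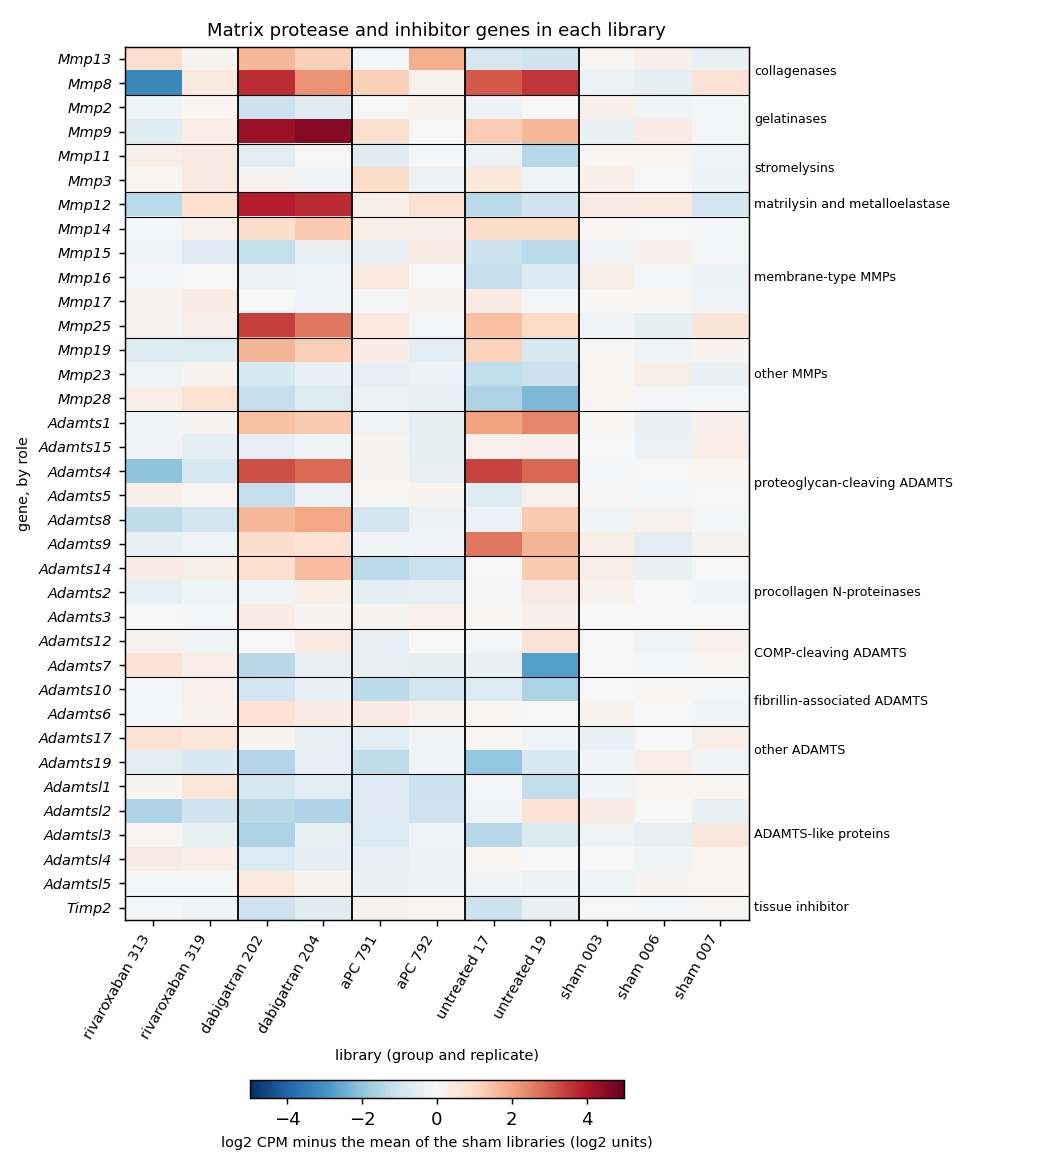
Each cell is the log2 CPM of a tested member (rows, by role) in a library (columns, by group) minus the mean of the sham libraries. Dark red cells stand for Mmp8, Mmp9, Mmp12, Mmp25 and Adamts4 in the dabigatran columns and for Mmp8, Adamts1, Adamts4 and Adamts9 in the untreated columns, where Mmp12 is below the sham level, and the rivaroxaban and aPC columns stay near the sham level apart from a few genes such as Adamts4 and Mmp8 in Riva-313.

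Across the 8 comparisons, 24 of the 36 tested members were called at least once and 12 never. Untreated minus sham called 11 members (30.6%), 6 higher and 5 lower, against 10.6% of all genes tested (5.07% higher and 5.52% lower). The median absolute log2 difference was 0.80 for members, against 0.33 over all genes. Members also had the larger value in rivaroxaban minus sham (0.26, against 0.15), where no gene was called, and the part of spread in this was not tested. The count fell to 7 without untreated replicate 19 (5.19% of all genes), to 5 without sham replicate 003 (3.3%), to 5 without 006 (1.93%) and to 6 without 007 (5.24%). Without untreated replicate 17 it was 15 of 36 (41.7%), against 38.4% of all genes. The 5 calls that held without any single library were Mmp14, Mmp28, Adamts1, Adamts4 and Adamts9.

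Rivaroxaban minus untreated called 10 of 36 members (27.8%), 3 higher and 7 lower, against 8.47% of all genes (4.02% higher and 4.45% lower). It shares the untreated libraries with the comparison above, so the values of both are given gene by gene and no overlap is read from them. The count was 3 without Riva-313 (Adamts1, Adamts4 and Mmp28), against 0.318% of all genes, and 6 without Riva-319, against 0.827%. Without untreated replicate 17 it was 16 of 36 (44.4%), against 37.1% of all genes. Dabigatran minus untreated called 10 of 36 members (27.8%), 5 in each direction, against 13.8% of all genes (8.71% higher and 5.08% lower). With libraries centred on their median the same comparison called 907 genes higher and 1028 lower, in place of 1180 and 688. The member count was 2 (5.56%) without Dabi-202 (Mmp9 and Mmp12), against 4.89% of all genes, and 16 (44.4%) without untreated replicate 17, against 36.4%. aPC minus untreated called 9 of 36 members (25%), 4 higher and 5 lower, against 17.6% of all genes (7.44% higher and 10.2% lower). That count was 3 without aPC-792 (Adamts1, Adamts4 and Adamts9), against 1.77% of all genes, and 15 (41.7%) without untreated replicate 17, against 38.7%, so the larger counts without replicate 17 came with more calls over all genes. These 3 comparisons share the untreated libraries.

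Rivaroxaban minus dabigatran, the comparison of the pair of oral inhibitors, called 16 of 36 members (44.4%), 6 higher and 10 lower, against 23.3% of all genes (9.39% higher and 14% lower). Centring on the median gave 1692 genes higher and 1449 lower, in place of 1271 and 1890. The member count was 9 without Riva-313 (6.79% of all genes), 9 without Riva-319 (9.85%) and 8 without Dabi-202 (6.93%). Dabigatran minus sham called 13 members (36.1%), 8 higher and 5 lower, against 18.5% of all genes (11.7% higher and 6.82% lower), and centring gave 1229 genes higher and 1343 lower in place of 1584 and 924. Leaving out Dabi-202 gave 5 members (2.76% of all genes), leaving out sham replicate 003 gave 8 (8.81%), and leaving out either untreated library gave 22 (31.4% and 31.5%).

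Rivaroxaban minus sham called 0 members by limma, against 0% of all genes. At an unadjusted p under 0.05 there were 5 members and 761 genes, and the fit of only these 2 groups called 0 members. aPC minus sham also called 0 members by limma, against 1.17% of all genes (0.126% higher and 1.05% lower). At an unadjusted p under 0.05 there were 6 members. Without untreated replicate 17, without untreated replicate 19, and in the fit of only these 2 groups, limma called 2 members lower in aPC minus sham, Adamts10 and Adamts14, against 5.75%, 5.73% and 6% of all genes. The median absolute difference of members from sham was 0.26 in rivaroxaban and 0.32 in aPC hearts, against 0.15 and 0.23 over all genes, and 0.81 in dabigatran hearts, against 0.33.

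**Figure D2:**
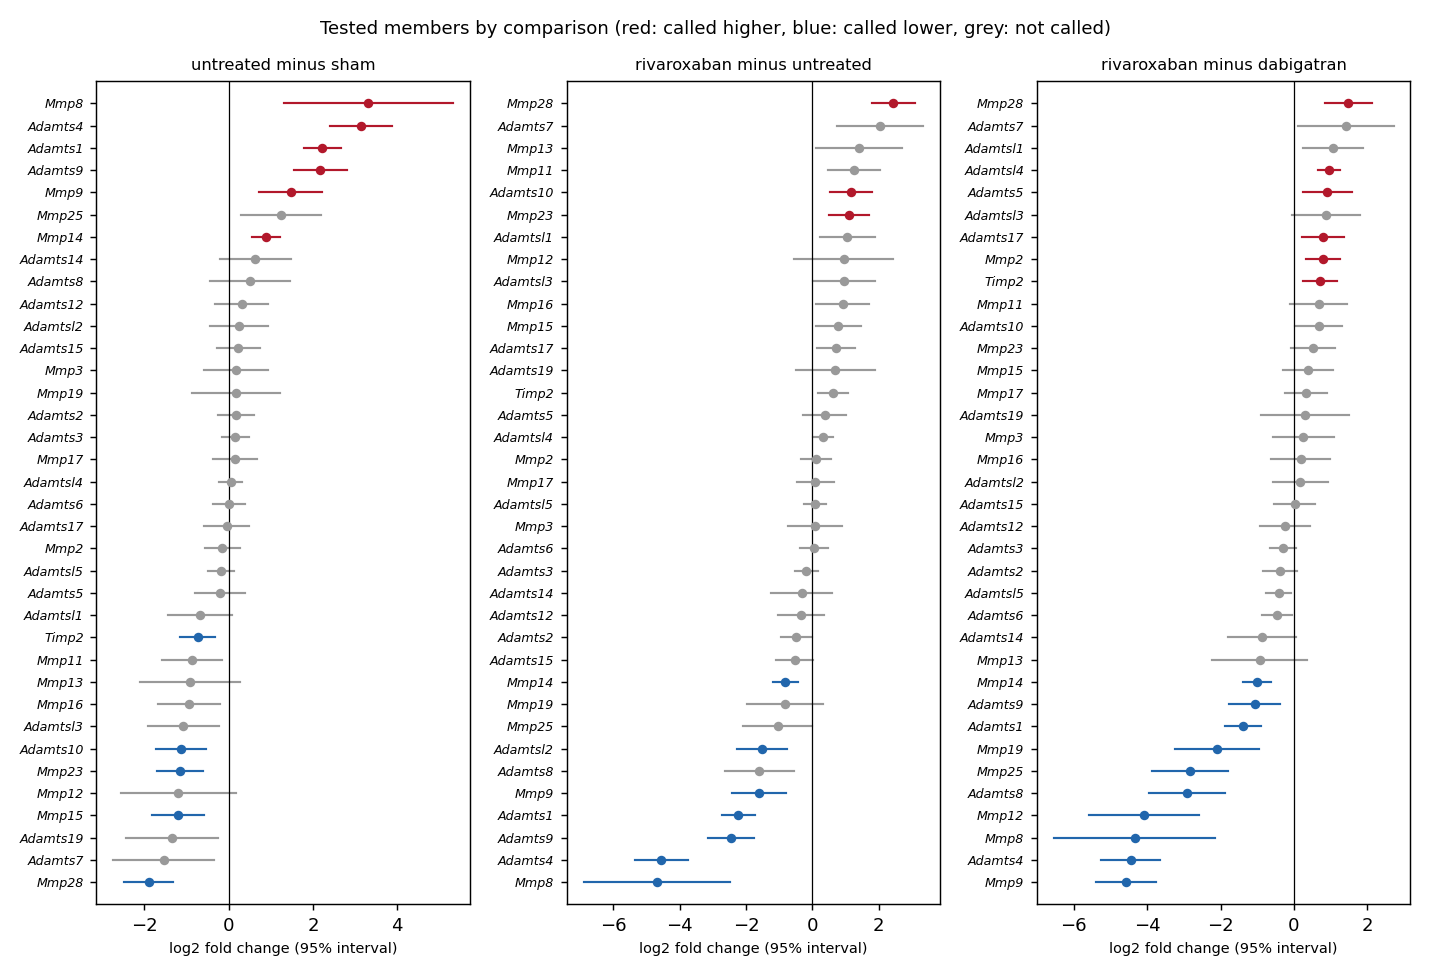
Points are log2 fold changes of the 36 tested members (rows) with 95% intervals from limma, in untreated minus sham, rivaroxaban minus untreated and rivaroxaban minus dabigatran. The 6 genes called higher in untreated than in sham hearts are Mmp8, Adamts4, Adamts1, Adamts9, Mmp9 and Mmp14. The panels share libraries, and the points farthest below 0 in rivaroxaban minus untreated are Mmp8 and Adamts4.

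Of the proteoglycan-cleaving Adamts genes, Adamts1, Adamts4 and Adamts9 were high in untreated hearts and near or below the sham level in rivaroxaban and aPC hearts. Adamts1, an early-induced protease of versican and aggrecan, stood at 5.70 and 5.98 log2 CPM in rivaroxaban, 7.32 and 7.14 in dabigatran, 5.68 and 5.37 in aPC, 7.85 and 8.31 in untreated, and 5.93, 5.52 and 6.11 in sham hearts. Untreated hearts were above every other heart, dabigatran hearts came next, and the rivaroxaban, aPC and sham libraries interleaved. Adamts1 rose in untreated over sham hearts by 2.23 ± 0.20 (4.68-fold, adjusted p = 0.000489). It was lower than in untreated hearts by -2.23 ± 0.22 in rivaroxaban (adjusted p = 0.00141), by -0.84 ± 0.22 in dabigatran (adjusted p = 0.033) and by -2.55 ± 0.22 in aPC hearts (adjusted p = 0.00037). The rivaroxaban and dabigatran hearts differed by -1.39 ± 0.22 (adjusted p = 0.0023), and dabigatran hearts stayed above sham by 1.38 ± 0.20 (adjusted p = 0.00231). Of these 6 calls only dabigatran minus untreated was lost in leave-one-out fits, without Dabi-202, Dabi-204, untreated replicate 19 or sham replicate 003 (adjusted p 0.0524 to 0.126).

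Adamts4, the classic aggrecanase of cartilage, which also cuts versican, had 0.18 and 1.34 log2 CPM in rivaroxaban, 5.41 and 4.999 in dabigatran, 2.30 and 1.76 in aPC, 5.57 and 5.06 in untreated, and 2.08, 2.18 and 2.29 log2 CPM in sham hearts. Dabigatran and untreated hearts shared a high level, and both rivaroxaban hearts were below all others. Adamts4 was 8.77-fold higher in untreated than in sham hearts (log2 3.13 ± 0.33, adjusted p = 0.00136) and 8.12-fold higher in dabigatran than in sham hearts (3.02 ± 0.33, adjusted p = 0.000992). It fell by 4.56 ± 0.36 in rivaroxaban (adjusted p = 0.00057) and by 3.29 ± 0.36 in aPC hearts (adjusted p = 0.00103) relative to untreated. Rivaroxaban and dabigatran hearts differed by -4.45 ± 0.36 (adjusted p = 0.000249). All 5 calls held without any single library. Dabigatran minus untreated was not among them: the group means were 5.20 ± 0.29 in dabigatran and 5.32 ± 0.36 in untreated hearts (SD, n = 2 each). Rivaroxaban minus sham was -1.42 ± 0.33 with a 95% interval of -2.16 to -0.69 and an adjusted p of 0.475 by limma.

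Adamts9, a broadly expressed versican protease, had 4.77 and 4.89 log2 CPM in rivaroxaban, 5.97 and 5.83 in dabigatran, 4.94 and 4.92 in aPC, 7.75 and 6.81 in untreated, and 5.42, 4.59 and 5.29 in sham hearts. Untreated hearts were again highest without overlap, and dabigatran hearts lay between them and the rest. The difference from sham was 2.18 ± 0.28 in untreated hearts (adjusted p = 0.00282). Relative to untreated, Adamts9 fell by 2.45 ± 0.31 in rivaroxaban (adjusted p = 0.00345), by 1.38 ± 0.31 in dabigatran (adjusted p = 0.0179) and by 2.35 ± 0.31 in aPC hearts (adjusted p = 0.00241). The rivaroxaban call was lost without Riva-313 (adjusted p = 0.0505) and the dabigatran call without Dabi-202 or Dabi-204 (adjusted p 0.0716 to 0.0766). Rivaroxaban minus dabigatran was -1.07 ± 0.31 (adjusted p = 0.0316) and was lost without any rivaroxaban or dabigatran library (adjusted p 0.0664 to 0.18).

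The other members of the group behaved differently. Adamts8, a weakly expressed relative, had -0.43 and -0.07 log2 CPM in rivaroxaban, 2.51 and 2.80 in dabigatran, -0.05 and 0.58 in aPC, 0.57 and 2.14 in untreated, and 0.71, 1.06 and 0.78 in sham hearts. Dabigatran hearts were the highest without overlap, and untreated replicate 17 lay among the other hearts while replicate 19 stood above them. It was lower in rivaroxaban than in dabigatran hearts (-2.91 ± 0.47, adjusted p = 0.00242) and higher in dabigatran than in sham hearts (1.81 ± 0.43, adjusted p = 0.0182), and the second call was lost without Dabi-202 or Dabi-204 or sham replicate 003 or 007 (adjusted p 0.0537 to 0.111). Adamts5, the other main aggrecanase, had 5.46 and 5.28 log2 CPM in rivaroxaban, 4.01 and 4.90 in dabigatran, 5.24 and 5.34 in aPC, 4.59 and 5.41 in untreated, and 5.26, 5.13 and 5.21 in sham hearts. Its level was near that of sham in all hearts except Dabi-202, Dabi-204 and untreated replicate 17. Rivaroxaban minus dabigatran was called at 0.91 ± 0.30 (adjusted p = 0.0481), and the call was lost in 8 of 11 leave-one-out fits (adjusted p up to 0.375), all but those without Dabi-204 or an untreated library. Adamts15, also a versican protease, ranged from 3.80 in aPC-792 to 4.60 log2 CPM in sham replicate 007 and was called in no comparison. Its difference was 0.23 ± 0.23 in untreated minus sham (95% interval -0.28 to 0.74). Adamts1 and Adamts5 are neighbours on chromosome 16, 53.06 kilobases apart, as are Adamts15 and Adamts8 on chromosome 9, 20.11 kilobases apart. In untreated minus sham Adamts1 was called and Adamts5 was not (-0.20 ± 0.27), and in rivaroxaban minus dabigatran Adamts1 was called lower and Adamts5 higher.

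Over the 6 tested genes of this group, untreated minus sham called 3 higher and 0 lower with a median log2 difference of 1.34, against -0.03 over all genes. Rivaroxaban minus untreated called 0 higher and 3 lower (median -1.92, against 0.02 over all genes), and aPC minus untreated 0 higher and 3 lower (median -1.72, against 0.07). Dabigatran minus untreated called 0 higher and 2 lower (median -0.55, against 0.05). Over all genes, untreated minus sham called 5.07% higher, and rivaroxaban, aPC and dabigatran minus untreated called 4.45%, 10.2% and 5.08% lower. Exons of Adamts9 (9.18% of bases) and Adamts8 (10.6%) overlap a gene on the opposite strand, and the strand setting of the counting is not given in the sources used here, so reads of such partners cannot be told apart from those of the gene.

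**Figure D3:**
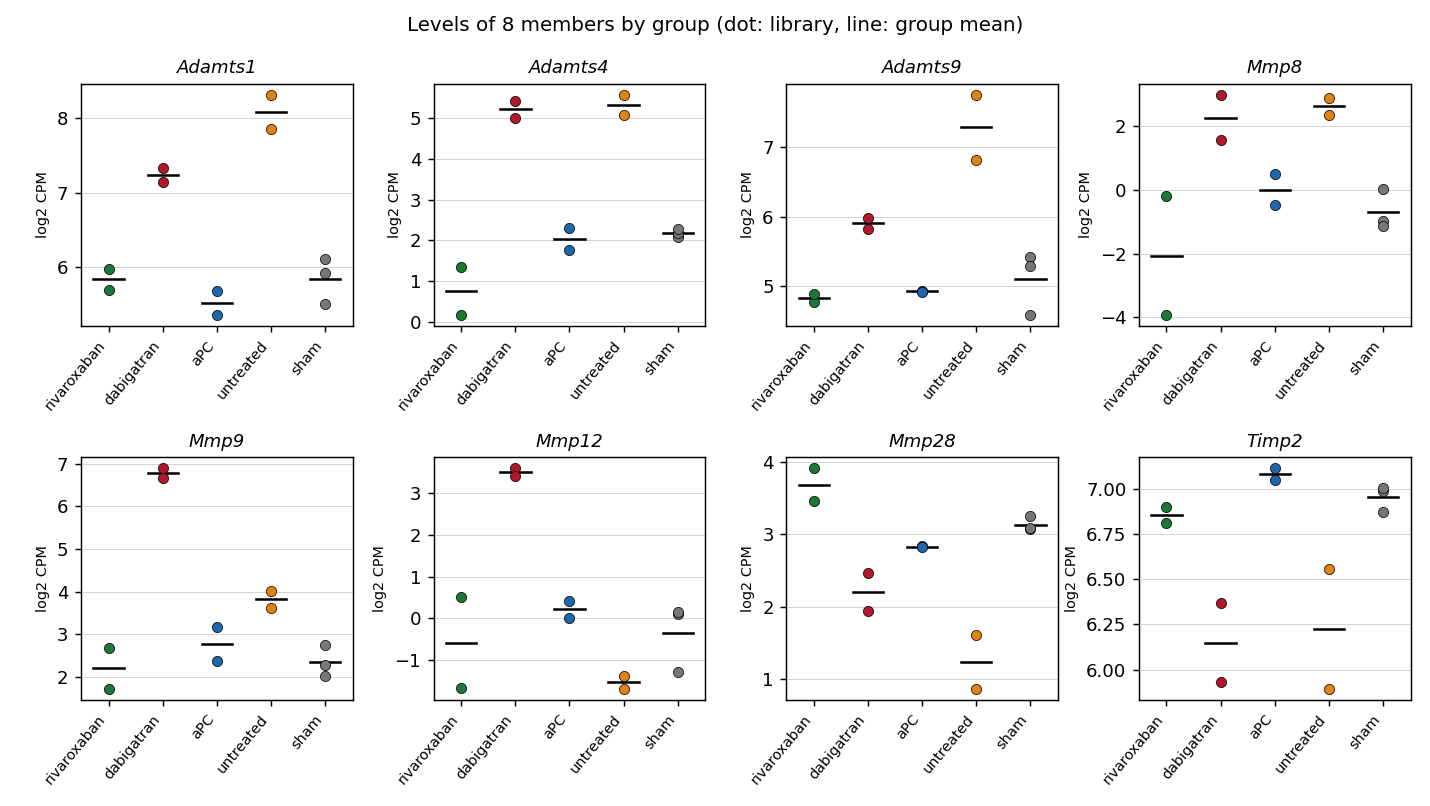
Each dot is the log2 CPM of a library and each line a group mean, for 8 members in rivaroxaban, dabigatran, aPC, untreated and sham hearts. Adamts1 and Adamts9 peak in untreated hearts, Adamts4 and Mmp8 are high in dabigatran and untreated hearts, Mmp9 and Mmp12 peak in dabigatran hearts, and Mmp28 is lowest in untreated hearts.

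Among proteases known from neutrophils and macrophages, Mmp9, Mmp12 and Mmp25 were highest in dabigatran hearts, while the mean of Mmp8 was highest in untreated hearts. Mmp9, the gelatinase that neutrophils store in granules, had 1.72 and 2.69 log2 CPM in rivaroxaban, 6.67 and 6.89 in dabigatran, 3.16 and 2.38 in aPC, 3.62 and 4.01 in untreated, and 2.02, 2.75 and 2.27 in sham hearts. The dabigatran hearts stood far above all others, and the untreated pair came second. Dabigatran exceeded untreated by 2.96 ± 0.37 (7.8-fold, adjusted p = 0.00121) and sham by 4.43 ± 0.34 (21.6-fold, adjusted p = 0.000777), and rivaroxaban was below dabigatran by -4.58 ± 0.37 (adjusted p = 0.000249). These 3 calls held without any single library. Untreated minus sham was 1.47 ± 0.34 (adjusted p = 0.0242) and was lost without untreated replicate 19 or any sham library (adjusted p 0.052 to 0.102). Rivaroxaban minus untreated was -1.61 ± 0.37 (adjusted p = 0.0282) and was lost without Riva-313 or untreated replicate 19 (adjusted p 0.088 to 0.207).

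Mmp8, the neutrophil collagenase, rested on few reads. It had 0 and 28 reads in rivaroxaban, 209 and 115 in dabigatran, 33 and 16 in aPC, 166 and 208 in untreated, and 15, 13 and 28 reads in sham hearts. Dabigatran and untreated hearts held more reads than any other heart, and Riva-313 held none. In log2 CPM these were -3.93 and -0.20 in rivaroxaban, 3.00 and 1.56 in dabigatran, 0.50 and -0.47 in aPC, 2.37 and 2.89 in untreated, and -0.97, -1.13 and 0.04 in sham hearts. Untreated minus sham was 3.32 ± 0.91 (adjusted p = 0.0441) and dabigatran minus sham 2.97 ± 0.91 (adjusted p = 0.0456). The first call held in leave-one-out fits only without a rivaroxaban library or untreated replicate 17 (adjusted p up to 0.161 otherwise), and the second only without a rivaroxaban or untreated library (adjusted p up to 0.34 otherwise). Leaving out Dabi-202 or Dabi-204 put dabigatran minus sham at 2.24 or 3.68.

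Rivaroxaban minus untreated for Mmp8 was -4.70 ± 0.99 (adjusted p = 0.023) and rivaroxaban minus dabigatran -4.34 ± 0.99 (adjusted p = 0.0122). Without Riva-313 the differences were -2.83 (adjusted p = 0.125) and -2.48 (adjusted p = 0.0722), and without Riva-319 they were -6.56 and -6.21. Rivaroxaban minus untreated was also lost without untreated replicate 19 (adjusted p = 0.0671). Rivaroxaban minus dabigatran was -3.62 without Dabi-202, where the call was lost (adjusted p = 0.121), and -5.06 without Dabi-204.

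Mmp12, the elastase of macrophages, had 7 and 47 reads in rivaroxaban, 315 and 418 in dabigatran, 23 and 31 in aPC, 8 and 9 in untreated, and 34, 35 and 10 reads in sham hearts. Dabigatran hearts were above every other heart, and both untreated hearts lay at the low end with Riva-313 and sham replicate 007. Dabigatran minus untreated was 5.02 ± 0.68 (adjusted p = 0.00178), the largest difference of any member in the 8 comparisons, and held without any single library. Dabigatran minus sham was 3.83 ± 0.62 (adjusted p = 0.00344) and was lost without Dabi-202 (adjusted p = 0.0532). Rivaroxaban minus dabigatran was -4.08 ± 0.68 (adjusted p = 0.00273), and -2.99 without Riva-313 or -5.16 without Riva-319, still called. Untreated minus sham was -1.19 ± 0.62 and was not called (adjusted p = 0.21).

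Mmp25, a membrane-anchored protease of neutrophils, had -0.83 and -0.71 log2 CPM in rivaroxaban, 2.47 and 1.66 in dabigatran, -0.48 and -1.07 in aPC, 0.51 and 0.03 in untreated, and -1.15, -1.45 and -0.34 in sham hearts. As for Mmp9, dabigatran hearts came first and untreated hearts second, and neither pair overlapped with another group. Dabigatran minus sham was 3.05 ± 0.43 (adjusted p = 0.00201) and rivaroxaban minus dabigatran -2.84 ± 0.47 (adjusted p = 0.00271), both held without any single library. Dabigatran minus untreated was 1.80 ± 0.47 (adjusted p = 0.032) and was lost without a rivaroxaban library, Dabi-202 or untreated replicate 19 (adjusted p 0.0531 to 0.188). Untreated minus sham was 1.25 ± 0.43 and was not called (adjusted p = 0.082).

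Mmp13, a collagenase of fibroblasts and cartilage, had -0.02 and -0.71 log2 CPM in rivaroxaban, 0.79 and 0.34 in dabigatran, -0.96 and 0.96 in aPC, -1.68 and -1.85 in untreated, and -0.81, -0.58 and -1.17 in sham hearts. Untreated hearts were lowest without overlap, and the aPC pair lay 1.92 apart. It was called once, at 2.33 ± 0.58 in dabigatran minus untreated (adjusted p = 0.0276), and the call was lost without Dabi-202 or Dabi-204 or untreated replicate 19 (adjusted p 0.0621 to 0.145). Mmp3, the main stromelysin of fibroblasts and a neighbour of Mmp12 on chromosome 9, ran from 3.91 in aPC-792 to 5.14 log2 CPM in aPC-791, so its whole range lay within a single group. It was called nowhere, and untreated minus sham was 0.18 ± 0.34 (95% interval -0.57 to 0.93). The chromosome 9 cluster runs from Mmp13 through Mmp12, Mmp3 and Mmp10 to Mmp8, at chr9:7272514-7568485, with gaps of 46.38 to 76.32 kilobases. In dabigatran minus untreated it thus held 2 genes called higher, Mmp12 and Mmp13, beside Mmp3 at -0.18 ± 0.37, which was not called. In the same cluster Mmp8 was called higher and Mmp12 not called in untreated minus sham.

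Markers of white cells differed between the groups too. The 10 neutrophil markers found, of 12 listed, summed to 15.2 and 35.7 CPM in rivaroxaban, 943 and 474 in dabigatran, 100.5 and 37.7 in aPC, 103 and 153 in untreated, and 28.1, 32.6 and 45.8 CPM in sham hearts. Ly6g and Ngp, which define neutrophils, had no read in at least 1 library. Of 8 neutrophil markers tested, untreated minus sham called 6 higher and 0 lower, rivaroxaban minus untreated 0 higher and 6 lower, dabigatran minus untreated 4 higher and 0 lower, and aPC minus untreated 0 higher and 2 lower. Over all genes the shares in the same order were 5.07% higher and 5.52% lower, 4.02% and 4.45%, 8.71% and 5.08%, and 7.44% and 10.2%. The 12 monocyte and macrophage markers, all found, summed to 450.1 to 462.7 CPM in rivaroxaban, 979.6 to 981.5 in dabigatran, 674 to 765 in aPC, 320.0 to 453 in untreated and 545 to 722 CPM in sham hearts. Dabigatran minus untreated called 7 of these 12 higher and 0 lower, and untreated minus sham called 1 higher and 4 lower. Rivaroxaban minus untreated, in which Mmp8 and Mmp9 were called lower, called 4 of the 12 higher and 1 lower, and aPC minus untreated did likewise with 4 higher and 1 lower. The part of these cells in the differences of Mmp8, Mmp9, Mmp12 and Mmp25 was not tested. In a whole-tissue sample, fewer cells of a type and less RNA per cell cannot be told apart.

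**Figure D4:**
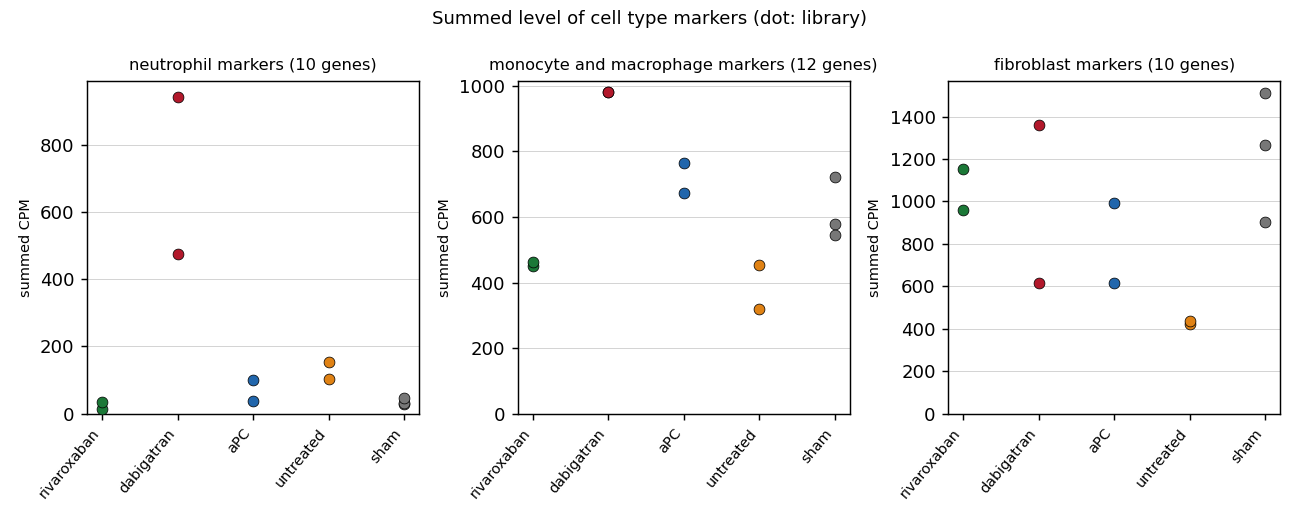
Dots are the summed CPM of neutrophil, monocyte and macrophage, and fibroblast markers in each library of the rivaroxaban, dabigatran, aPC, untreated and sham groups. Neutrophil sums reach 474 to 943 CPM in dabigatran hearts and stay at or below 153 CPM elsewhere, and fibroblast sums are lowest in untreated hearts.

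Mmp14, Mmp2 and Timp2 act together at the cell surface. Mmp14, a membrane protease that cuts collagen and activates pro-Mmp2 together with Timp2, had 4.53 and 4.80 log2 CPM in rivaroxaban, 5.46 and 5.88 in dabigatran, 4.86 and 4.85 in aPC, 5.50 and 5.45 in untreated, and 4.62, 4.60 and 4.53 in sham hearts. Dabigatran and untreated hearts were above all others without overlap. Mmp14 rose by 0.89 ± 0.15 in untreated (adjusted p = 0.00963) and by 1.09 ± 0.15 in dabigatran hearts (adjusted p = 0.002) over sham, and rivaroxaban minus dabigatran was -1.01 ± 0.17 (adjusted p = 0.00273), all 3 held without any single library. Rivaroxaban minus untreated was -0.81 ± 0.17 (adjusted p = 0.021), lost without either rivaroxaban library (adjusted p 0.0701 to 0.177). aPC minus untreated was -0.62 ± 0.17 (adjusted p = 0.0314), lost without either aPC library or sham replicate 003 or 006 (adjusted p 0.0502 to 0.161).

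Mmp2, the gelatinase that fibroblasts make constitutively, had 6.06 and 6.32 log2 CPM in rivaroxaban, 5.16 and 5.63 in dabigatran, 6.21 and 6.39 in aPC, 5.94 and 6.24 in untreated, and 6.49, 6.05 and 6.16 in sham hearts. Only the dabigatran pair lay apart, below every other heart. Dabigatran minus sham was -0.84 ± 0.19 (adjusted p = 0.0146), lost without Dabi-202 or sham replicate 003 (adjusted p 0.0526 to 0.168). Rivaroxaban minus dabigatran was 0.79 ± 0.21 (adjusted p = 0.0204), lost without either rivaroxaban library or Dabi-202 (adjusted p 0.0639 to 0.18). Dabigatran minus untreated was -0.69 ± 0.21 (adjusted p = 0.0496) and held in leave-one-out fits only without Dabi-204 or untreated replicate 17 (adjusted p up to 0.261 otherwise). The 2 gelatinases therefore stood on opposite sides of zero in dabigatran minus untreated and in dabigatran minus sham.

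Timp2, the inhibitor of Mmp2 and a partner in its activation, had 6.90 and 6.81 log2 CPM in rivaroxaban, 5.93 and 6.37 in dabigatran, 7.11 and 7.05 in aPC, 5.89 and 6.56 in untreated, and 6.99, 6.87 and 7.01 in sham hearts. Dabigatran and untreated hearts were below all others. Timp2 fell by 0.73 ± 0.19 in untreated (adjusted p = 0.0371) and by 0.81 ± 0.19 in dabigatran hearts (adjusted p = 0.0173) relative to sham. The untreated call held in leave-one-out fits only without a dabigatran library or untreated replicate 19 (adjusted p up to 0.102 otherwise), and the dabigatran call was lost without Dabi-202 or sham replicate 003 or 007 (adjusted p 0.0534 to 0.193). aPC exceeded untreated by 0.86 ± 0.21 (adjusted p = 0.0218), lost without either aPC library (adjusted p 0.0948 to 0.116). Rivaroxaban exceeded dabigatran by 0.71 ± 0.21 (adjusted p = 0.0327), lost without either rivaroxaban library, Dabi-202 or sham replicate 003 (adjusted p 0.0514 to 0.253). Rivaroxaban minus untreated was 0.63 ± 0.21 and was not called (adjusted p = 0.0812). Timp1, Timp3 and Timp4 were not analysed here. The 10 fibroblast markers summed to 962 to 1154 CPM in rivaroxaban, 616 to 1360 in dabigatran, 616 to 994 in aPC, 421 to 436 in untreated and 901 to 1513 CPM in sham hearts, and their part in these differences was not tested.

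Mmp28, known as epilysin and expressed in resting epithelia and other tissues, was called lower in untreated than in sham hearts. It had 3.46 and 3.91 log2 CPM in rivaroxaban, 1.95 and 2.46 in dabigatran, 2.83 and 2.82 in aPC, 1.61 and 0.87 in untreated, and 3.25, 3.07 and 3.09 in sham hearts. Untreated hearts were lowest, dabigatran hearts next, and rivaroxaban hearts above all others, with no overlap between groups. Mmp28 fell by 1.90 ± 0.27 in untreated relative to sham hearts (adjusted p = 0.00403). Relative to untreated it was higher by 2.44 ± 0.29 in rivaroxaban (adjusted p = 0.00268) and by 1.59 ± 0.29 in aPC hearts (adjusted p = 0.00808). The first 2 calls held without any single library, and the aPC call was lost without aPC-792 (adjusted p = 0.0673). Rivaroxaban minus dabigatran was 1.48 ± 0.29 (adjusted p = 0.00604), lost without Riva-319 or Dabi-202 (adjusted p 0.0593 to 0.0662). Dabigatran minus sham was -0.93 ± 0.27 (adjusted p = 0.0354) and held in leave-one-out fits only without Dabi-204 or an untreated library (adjusted p up to 0.292 otherwise). Of the exon bases of Mmp28, 12% overlap a gene on the opposite strand.

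Some further genes called lower in untreated than in sham hearts were chosen after their values were seen. Mmp15, a membrane-anchored protease, differed by -1.21 ± 0.28 (adjusted p = 0.026), Mmp23 by -1.15 ± 0.25 (adjusted p = 0.0196) and Adamts10, which binds fibrillin, by -1.13 ± 0.26 (adjusted p = 0.0273). The calls of Mmp15 and Adamts10 were lost without untreated replicate 19 or any sham library (adjusted p 0.0578 to 0.131), and that of Mmp23 without sham replicate 003 or 006 (adjusted p 0.0681 to 0.084). Relative to untreated, rivaroxaban hearts were called higher for Mmp23 (1.11 ± 0.27, adjusted p = 0.0335) and Adamts10 (1.17 ± 0.29, adjusted p = 0.0355), each lost in 6 of 11 leave-one-out fits. Both were lost without Riva-313, Riva-319, untreated replicate 19 or sham replicate 003, Mmp23 also without either aPC library, and Adamts10 also without sham replicate 006 or 007 (adjusted p up to 0.206). aPC hearts were called higher for Mmp15 (1.19 ± 0.31, adjusted p = 0.0274), lost without aPC-792 or untreated replicate 19 (adjusted p 0.0794 to 0.201), and Mmp16 (1.17 ± 0.36, adjusted p = 0.0485), lost in all 11 leave-one-out fits. Adamts10 stood at 5.37 and 5.68 log2 CPM in rivaroxaban, 4.58 and 5.13 in dabigatran, 4.13 and 4.54 in aPC, 4.81 and 3.89 in untreated, and 5.47, 5.53 and 5.43 in sham hearts.

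Adamts14, a protease that trims procollagen, had 2.39 and 2.33 log2 CPM in rivaroxaban, 2.88 and 3.58 in dabigatran, 0.69 and 0.93 in aPC, 2.00 and 3.35 in untreated, and 2.34, 1.72 and 2.06 in sham hearts. The aPC pair was below every other heart. Adamts2 and Adamts3, the other procollagen proteases, were called in no comparison. aPC minus untreated was -1.86 ± 0.42 (adjusted p = 0.0163), and -2.54 without untreated replicate 17 or -1.19 without 19. The call was lost without either aPC library (adjusted p 0.0801 to 0.0918). aPC minus sham was -1.22 ± 0.38 with an adjusted p of 0.161 by limma.

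Adamtsl2, which binds microfibrils and the latent form of transforming growth factor beta, had 2.63 and 3.20 log2 CPM in rivaroxaban, 2.78 and 2.69 in dabigatran, 3.55 and 3.14 in aPC, 3.95 and 4.89 in untreated, and 4.54, 4.18 and 3.82 in sham hearts. Every drug-treated heart was below every untreated and sham heart. Adamtsl2 fell relative to untreated by 1.51 ± 0.34 in rivaroxaban (adjusted p = 0.0276) and by 1.69 ± 0.34 in dabigatran hearts (adjusted p = 0.0112), and relative to sham by 1.45 ± 0.31 in dabigatran hearts (adjusted p = 0.0121). The dabigatran calls were lost without Dabi-202 (adjusted p = 0.0593 and 0.0982), and the rivaroxaban call without either rivaroxaban library or untreated replicate 19 (adjusted p 0.0788 to 0.203). aPC minus sham was -0.84 ± 0.31 (95% interval -1.52 to -0.15) and was not called. Untreated minus sham was 0.24 ± 0.31 and was not called either (adjusted p = 0.622).

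Remaining calls were of smaller size or in a single comparison, and these genes were also chosen after their values were seen. Adamtsl4, a fibrillin-binding protein, had 6.54 and 6.48 log2 CPM in rivaroxaban, 5.45 and 5.64 in dabigatran, 5.71 and 5.85 in aPC, 6.24 and 6.15 in untreated, and 6.17, 5.99 and 6.25 in sham hearts. It was 0.97 ± 0.14 higher in rivaroxaban than in dabigatran hearts (adjusted p = 0.00128), held without any single library. Its calls in dabigatran minus untreated (-0.65 ± 0.14, adjusted p = 0.0133) and minus sham (-0.59 ± 0.12, adjusted p = 0.0109) were lost without Dabi-202 (adjusted p = 0.0839 and 0.116). Adamtsl5 was 0.51 ± 0.15 higher in dabigatran than in untreated hearts (adjusted p = 0.0496), lost in 9 of 11 leave-one-out fits, all but those without Dabi-204 or untreated replicate 17. The call was also lost with libraries centred on their median (0.41, adjusted p = 0.104) and with no filter on low values (adjusted p = 0.0564). Mmp19 was lower in rivaroxaban than in dabigatran hearts (-2.10 ± 0.52, adjusted p = 0.0167), lost without either rivaroxaban library or Dabi-202 (adjusted p 0.0794 to 0.137), and 22.3% of its exon bases overlap a gene on the opposite strand. Adamts17 was 0.80 ± 0.26 higher in rivaroxaban than in dabigatran hearts (adjusted p = 0.0499), lost in 9 of 11 fits, all but those without an untreated library (adjusted p up to 0.233), and with no filter on low values (adjusted p = 0.0554).

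The 12 members called in no comparison were Mmp3, Mmp11, Mmp17, Adamts2, Adamts3, Adamts6, Adamts7, Adamts12, Adamts15, Adamts19, Adamtsl1 and Adamtsl3. Adamts7, a protease of cartilage oligomeric matrix protein, had the widest gap of the tested members within the untreated pair, at 5.21 and 2.82 log2 CPM. Its untreated minus sham difference was -1.54 ± 0.54 (adjusted p = 0.0855), with sham hearts at 5.56, 5.49 and 5.62. The untreated pair differed by more than 1 log2 unit for 7 of 36 members (median gap 0.52), against 3 of 36 in each of the rivaroxaban, dabigatran and aPC pairs (median gaps 0.28, 0.43 and 0.41). The limma fit shares its spread among all groups. Fits of only the 2 groups compared called 0 members in rivaroxaban minus untreated, 0 in aPC minus untreated and 2 in dabigatran minus untreated, Mmp9 and Mmp12.

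Of the untested members, Adamts13, which cuts von Willebrand factor and so bears on clotting, had 7 and 22 reads in rivaroxaban, 4 and 2 in dabigatran, 2 and 2 in aPC, 11 and 10 in untreated, and 3, 6 and 0 reads in sham hearts. The rivaroxaban and untreated hearts held more reads than the others, at a depth too low for the test. Mmp10, a stromelysin of the chromosome 9 cluster, lay between -1.29 and -0.43 log2 CPM in all libraries.

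Genes that activate, clear or inhibit matrix proteases were counted from lists. Over all genes, untreated minus sham called 5.07% higher and 5.52% lower, and rivaroxaban minus untreated 4.02% and 4.45%. Dabigatran minus untreated called 8.71% higher and 5.08% lower. The counts of all lists below stand beside these shares. Of 10 tested genes of activation and clearance, untreated minus sham called 2 higher and 1 lower (median 0.07, against -0.03 over all genes). Plaur, the receptor that holds the plasminogen activator urokinase on cells, rose by 2.69 ± 0.34 (adjusted p = 0.00255), Furin, which cuts precursors of membrane proteases, rose by 0.76 ± 0.15 (adjusted p = 0.0156), and the related convertase Pcsk6 fell by 1.45 ± 0.36 (adjusted p = 0.0317). Rivaroxaban minus untreated called 0 higher and 3 lower (median -0.29, against 0.02), with Plaur at -3.23 ± 0.37 (adjusted p = 0.00265) and Furin at -1.01 ± 0.16 (adjusted p = 0.00923). Dabigatran minus untreated called 3 higher and 0 lower (median -0.11, against 0.05). They include Plau, the gene of urokinase, at 2.87 ± 0.29 (adjusted p = 0.000599), and Cd44, a hyaluronan receptor that can hold Mmp9 on cells, at 1.15 ± 0.27 (adjusted p = 0.022).

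Of 9 tested genes of other protease inhibitors, untreated minus sham called 2 lower (median -0.42), against 5.52% of all genes. Pzp, a broad trap of proteases, fell by 1.62 ± 0.29 (adjusted p = 0.0116) and Pcolce, an enhancer of procollagen processing, by 0.75 ± 0.20 (adjusted p = 0.0376). Rivaroxaban minus untreated called none of the 9 by limma, with 3 at an unadjusted p under 0.05 (median 0.40). Dabigatran minus untreated called 2 higher (median 0.24), Serpinb2, an inhibitor of plasminogen activators, at 4.84 ± 0.65 (adjusted p = 0.00177), and Tfpi2, a Kunitz-type protease inhibitor, at 1.65 ± 0.45 (adjusted p = 0.0387).

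Among 10 tested substrates, untreated minus sham called 0 higher and 1 lower (median -0.63), against 5.07% and 5.52% of all genes. The gene called was the microfibril gene Fbn1 at -1.05 ± 0.28 (adjusted p = 0.0396). Rivaroxaban minus untreated called 0 higher and 2 lower (median 0.33). Vcan, the proteoglycan versican that Adamts1, Adamts4 and Adamts9 cut, had 4.45 and 4.80 log2 CPM in rivaroxaban, 6.60 and 6.55 in dabigatran, 5.19 and 5.15 in aPC, 5.66 and 5.74 in untreated, and 5.47, 5.43 and 5.76 in sham hearts. Rivaroxaban hearts were lowest and dabigatran hearts highest, and untreated hearts lay within the sham range of 5.43 to 5.76. It fell by 1.07 ± 0.16 in rivaroxaban (adjusted p = 0.00635) and rose by 0.88 ± 0.16 in dabigatran relative to untreated hearts (adjusted p = 0.00701), and Prg4, a lubricating proteoglycan, fell by 1.82 ± 0.39 in rivaroxaban (adjusted p = 0.0238). In dabigatran minus untreated, 3 were called higher and 0 lower (median 0.68), with Fn1, the gene of fibronectin, at 2.64 ± 0.29 (adjusted p = 0.000744).

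Of 9 tested genes of the related membrane-anchored Adam proteases, untreated minus sham called 1 higher and 1 lower (median 0.29), against 5.07% and 5.52% of all genes. They were Adam8, a protease of white cells, at 1.81 ± 0.49 (adjusted p = 0.042) and Adam19, needed for heart development in mice, at -1.22 ± 0.24 (adjusted p = 0.0156). Rivaroxaban minus untreated also called 1 in each direction (median -0.27), with Adam23 at 1.86 ± 0.46 (adjusted p = 0.0349) and Adam8 at -2.41 ± 0.54 (adjusted p = 0.0269). In dabigatran minus untreated, 3 were called higher and 0 lower (median 0.45), with Adam19 at 1.68 ± 0.27 (adjusted p = 0.00379) and Adam12, which is known from regenerating muscle, at 2.38 ± 0.49 (adjusted p = 0.0125).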

How the data were processed

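Polyadenylated RNA of heart tissue, the infarct with the muscle around it, was sequenced after strand-marking library preparation, per the labels' protocols. The deposited values are log2 CPM with TMM normalization, as the deposited table is named. The submitters' processing notes name STAR, Trim Galore, FastQC, bcl2fastq and edgeR, and the build mm10. No source used here gives versions, the read counter, its strand setting or a gene filter. The table holds 11 of 15 labelled samples, and the other 4 were not analysed here. The deposited log2 values were turned back to reads: 100% of checked values were whole within 0.05 of a read. Of 16658 identifiers, 16654, and all 41 members, were matched to GENCODE M21, which gave positions and exon lengths.

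Genes with at least 0 log2 CPM in at least 3 libraries (13541) were tested with two-sided limma-trend (limma 3.58.1, R 4.3.3) in 1 fit of 5 group means, with Benjamini-Hochberg adjustment over all of them and calls under 0.05. Alternatives were no filter, log2(CPM + 1), centring on library medians, only the 2 groups compared, and leaving out each library. The design had planned for 15 libraries. The procedure was tested on simulated data.

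Named members are Timp2, Mmp2, Mmp3, Mmp8, Mmp9, Mmp14, Adamts1, Adamts4, Adamts5, Adamts9 and Adamts15, and up to 5 called members per comparison with the largest change and no overlap between groups. Timp1, Timp3 and Timp4 were planned as well, but Timp2 was the only Timp gene found by the rule. From each other list, up to 2 called genes per direction with the smallest p were named. Some results on these lists and on overlapping genes are not reported here. The members and lists were chosen with earlier results of these data known. Precision is limited by 2 libraries per group, 3 in sham.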

Additional observations from a re-analysis of the deposited data

How the results depend on the processing

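Members called under other settings are given by comparison. In untreated minus sham, 11 became 5 to 15 in leave-one-out fits. In rivaroxaban minus untreated, 10 became 3 to 16 in leave-one-out fits and 0 in the fit of only the 2 groups compared. In dabigatran minus untreated, 10 became 2 to 16 in leave-one-out fits and 2 in the 2-group fit. In aPC minus untreated, 9 became 3 to 15 in leave-one-out fits and 0 in the 2-group fit. In rivaroxaban minus dabigatran, 16 became 8 to 22 in leave-one-out fits. In dabigatran minus sham, 13 became 5 to 22 in leave-one-out fits and 22 in the 2-group fit. In rivaroxaban minus sham, the count was 0 in every leave-one-out fit. In aPC minus sham, 0 became 2 in the 2-group fit and 0 to 2 in leave-one-out fits. Over all genes the leave-one-out fits called 261 to 5197 in untreated minus sham, 43 to 5029 in rivaroxaban minus untreated, 662 to 4927 in dabigatran minus untreated, 239 to 5235 in aPC minus untreated, 919 to 4840 in rivaroxaban minus dabigatran, 374 to 4260 in dabigatran minus sham, 0 in rivaroxaban minus sham and 1 to 779 in aPC minus sham. The leave-one-out and 2-group fits hold fewer libraries, and counts both rose and fell in them. The cause of these changes was not tested.

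Over all genes, the 2-group fit called 471 in untreated minus sham, 0 in rivaroxaban minus untreated, 170 in dabigatran minus untreated, 3 in aPC minus untreated and 813 in aPC minus sham, in place of 1435, 1147, 1868, 2384 and 159. It called 3348 genes (24.7%) in rivaroxaban minus dabigatran, in place of 3161 (23.3%). In dabigatran minus sham, where the member count rose, it called 3210 genes (23.7%), in place of 2508 (18.5%). Over the 69 calls of a member in a comparison, none changed sign in any alternative run. Centring kept 68 of them, losing Adamtsl5 in dabigatran minus untreated, and log2(CPM + 1) kept 68, losing Mmp16 in aPC minus untreated (adjusted p = 0.0605). No filter kept 64, losing both of these, Mmp2 in dabigatran minus untreated (adjusted p = 0.0536), and Adamts5 (adjusted p = 0.0505) and Adamts17 in rivaroxaban minus dabigatran. The 2-group fit kept 38. Centring moved the median of all genes by -0.105 in dabigatran minus untreated.

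No paired analysis was possible because no replicate number is shared between groups. Leaving out 1 of 2 libraries leaves a lone one, assumed to vary like the other groups. With 2 libraries in most groups, a difference that was not called is not shown to be absent. The planned tests on the reads recovered from the log2 values are not reported here. In a trial one count-based tool called members lower in rivaroxaban minus sham and in aPC minus sham and another called none. The counts of 0 in those comparisons therefore depend on the tool. Members below the level of 3 reads in a library, such as Mmp8 in Riva-313, cannot be placed by depth.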
